A study of Drosophila melanogaster with 8 samples.

Results

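Adult male flies fed quercetin glucoside in a high-fat diet (HFD+QG) were compared with males fed that diet alone (HFD). Both libraries were taken whole by their diet and sex labels, so 2 of the 8 libraries of the series are compared, with 1 library a side. All 8 were made from Canton S flies, a wild-type strain of Drosophila melanogaster, that spent 7 days on 1 of 4 diets and a last 2 h on standard food, and were 15 days old at collection. The other male libraries came from the normal diet (ND), given here as a reference level, and from HFD with the tea catechin epigallocatechin gallate (HFD+EGCG). The same 4 diets were given to females. Bodies were used without wings or legs, so that head, thorax and abdomen were mixed, and fewer cells of a type and less RNA per cell cannot be told apart. The doses, the make-up of the high-fat diet and the number of flies behind a library are not given in the labels. With 1 library per diet and sex, no difference has a replicate check, and none below carries a p-value.

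Quercetin glucoside is a plant flavonol bound to glucose, taken up in food. In flies, food-borne compounds meet the midgut, which secretes trypsin-like proteases, lipases and carbohydrases, and the fat body, the organ that plays the part of liver and adipose tissue. The fat body also makes the antimicrobial peptides of the Toll and imd pathways, 2 signalling routes that answer mainly to fungal and bacterial wall molecules. Cytochrome P450 enzymes and glutathione transferases modify foreign compounds in gut, fat body and Malpighian tubules.

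Levels are in FPKM, which counts fragments per transcript length and library size. The authors rounded them to whole numbers, and they were summed here over the transcripts of each gene. They keep no read counts, so depth and counting error are unknown. A total of 12882 of 17655 genes were above 0 on HFD and 12819 on HFD+QG. The comparison covers the 8110 genes at 10 FPKM or more in at least 1 of the 2 libraries and above 0 in both, of which 7828 are protein-coding. A difference is that of log2(FPKM + 1), HFD+QG minus HFD, which understates the change of low genes, and a gene counts as different at 2-fold, a log2 difference of 1. Marker genes went with the labels. The 4 egg chamber genes were at 0 in all 4 male libraries, accessory gland markers summed to between 28455 and 40415 FPKM, and the rhodopsin gene ninaE, a photoreceptor marker, lay between 3704 and 5121 FPKM. The oenocyte marker Cyp4g1 was listed at 0 on HFD+QG and is described with the genes listed at 0.

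Most genes stood close to their HFD level. Of the 8110 genes, 7873 lay within 0.5 of 0 on the log2 scale. On HFD+QG, 32 genes (0.395% of those described) were at least 2-fold higher and 25 genes (0.308%) at least 2-fold lower. These were 0.703% of the genes described, against 2.18% between ND and HFD, 1.94% between ND and HFD+QG, 0.873% between HFD and HFD+EGCG and 0.772% between HFD+QG and HFD+EGCG. Pairs that share a library are not independent, so these shares only set the size of the contrast. Small differences leaned downwards, with 55.4% of genes below 0 and 29.6% above 0 and a median of -0.04. Summed FPKM were 927015 on HFD+QG and 1000513 on HFD. When both libraries were rescaled to a common sum over genes above 0 in both, the median moved to 0.05 and the counts to 37 higher and 18 lower, so that 67.3% of the 2-fold genes were higher in place of 56.1%. At 1.5-fold there were 73 genes higher (0.9%) and 85 lower (1.05%).

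**Figure D1:**
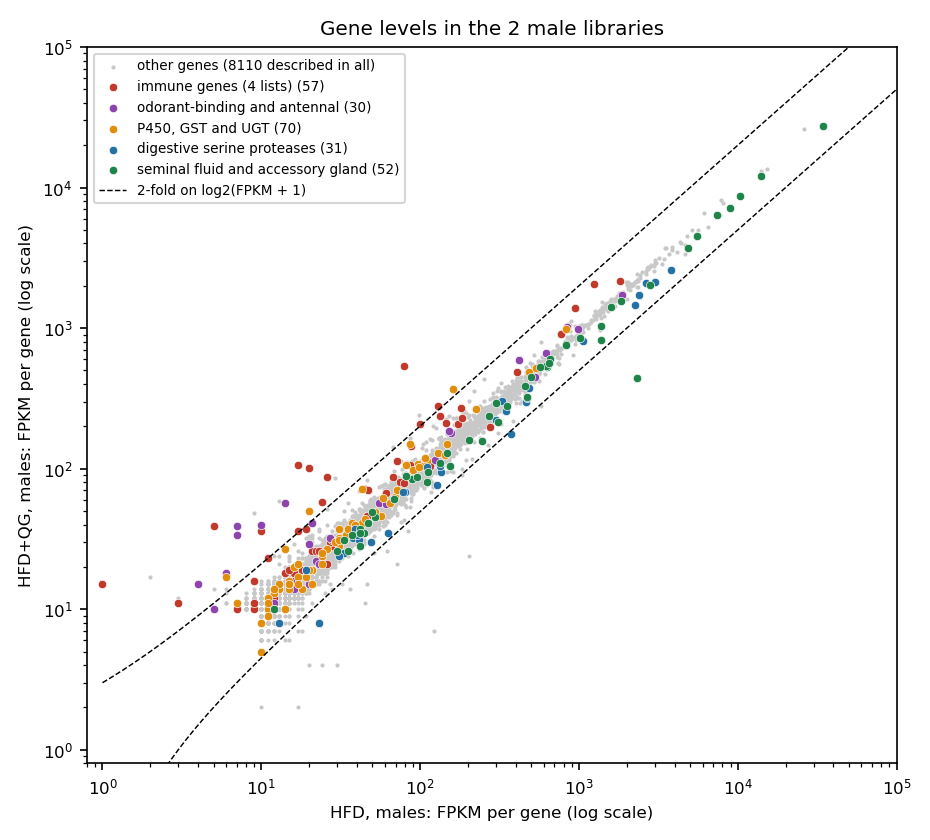
FPKM of each described gene on HFD (x axis) and HFD+QG (y axis) in males, both on log scales, 1 library each, with 5 gene groups coloured and dashed lines at 2-fold on the log2(FPKM + 1) scale. Most of the 8110 genes lie between the lines, 13 of the 57 immune genes (red) and 6 of the 30 odorant-binding and antennal genes (purple) lie on or above the upper line, and 30 of the 31 digestive proteases (blue) are lower on HFD+QG.

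Protein-coding genes made up 27 of the 32 higher genes (0.345% of the protein-coding genes described) and 10 of the 25 lower ones (0.128%). By function, 12 of the 27 higher protein-coding genes were immune effectors, stress peptides or recognition proteins, 6 were odorant-binding or antennal proteins and 3 were P450 or glutathione transferase genes. Another 5 were in no list. Of the 10 lower protein-coding genes, 3 were digestive proteases or lipases and 5 were in no list.

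**Figure D2:**
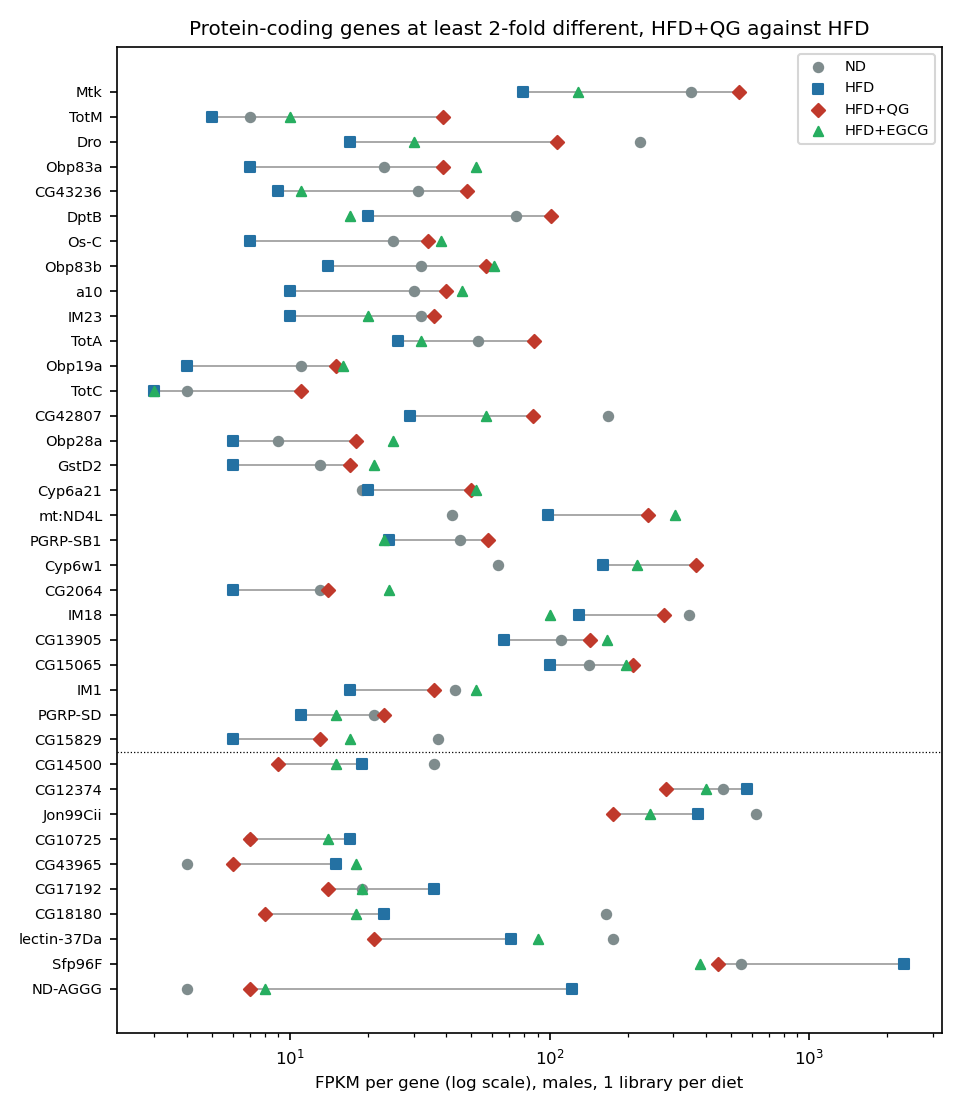
FPKM (log scale) of the 27 protein-coding genes at least 2-fold higher (above the dotted line) and the 10 at least 2-fold lower (below it) on HFD+QG than on HFD, in each of the 4 male libraries, with a grey line joining HFD and HFD+QG. In the lowest 2 rows, Sfp96F and ND-AGGG, the HFD library stands alone and the other 3 lie close together.

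Immune effector genes held the largest positive differences. Over 4 lists (antimicrobial peptides, bomanins and other immune-induced peptides, recognition and signalling, and Turandot and JAK-STAT genes), 57 genes were described, and 13 of them were at least 2-fold higher on HFD+QG. That is 22.8% of the 57, beside 0.395% of all genes described. None was 2-fold lower, 20 were at least 1.5-fold higher, 47 lay above 0 and 5 below. The lists were chosen with earlier results of these data known, so these shares are descriptive only. Direction in the 4 list medians was the same under median-centring and under a common sum.

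Among antimicrobial peptides, 11 of 19 genes were described, with a median difference of 0.67 beside -0.04 over all genes. Metchnikowin (Mtk, chromosome 2R, 15408846 to 15409113), a short proline-rich peptide active against fungi, was at 535 FPKM on HFD+QG and 79 on HFD, with 350 on ND and 129 on HFD+EGCG. Its difference of 2.74 was the largest positive one of any protein-coding gene. Drosocin (Dro, 2R, 14745961 to 14746714), a peptide of the imd pathway active against Gram-negative bacteria, was at 107 FPKM on HFD+QG and 17 on HFD, with 223 on ND and 30 on HFD+EGCG (difference 2.58). Diptericin B (DptB, 2R, 18867391 to 18867895), of the same pathway, was at 101 FPKM on HFD+QG and 20 on HFD, with 74 on ND and 17 on HFD+EGCG (2.28). In all 3 genes the HFD and HFD+EGCG libraries were the low ones and ND and HFD+QG the high ones.

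CG43236, which the reference annotation calls Mtkl, was in no list and lay at 48 FPKM on HFD+QG and 9 on HFD, with 31 on ND and 11 on HFD+EGCG (2.29). Diptericin A, DptA, missed 2-fold at 37 FPKM on HFD+QG and 19 on HFD, with 99 on ND and 12 on HFD+EGCG (0.93). Not all peptides shared the direction or the size. Drosomycin (Drs), the Toll-driven antifungal peptide, was at 208 FPKM on HFD+QG and 172 on HFD (0.27), CecA1 was at 197 and 274 (-0.47), and AttB was at 21 and 26 (-0.30). Of the 11 described genes of the antimicrobial list, 9 lay above 0 and 2 below, and 6 were at least 1.5-fold higher, beside 0.9% of all genes.

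Bomanins are short peptides secreted after Toll activation and needed for survival of many infections. All 15 described genes of the bomanin and immune-induced list lay above 0, beside 29.6% of all genes, with a median of 0.73. Of the 15, 5 were at least 2-fold higher, beside 0.395% of all genes. IM23 (2R, 18382704 to 18383235) was at 36 FPKM on HFD+QG and 10 on HFD, with 32 on ND and 20 on HFD+EGCG (1.75). IM1 (2R, 18383949 to 18384378), a near neighbour, was at 36 FPKM on HFD+QG and 17 on HFD, with 43 on ND and 52 on HFD+EGCG (1.04). CG15065, in the same stretch (2R, 18389959 to 18390242), was at 209 FPKM on HFD+QG and 100 on HFD, with 142 on ND and 197 on HFD+EGCG (1.06). For these 3 genes HFD was the lowest of the 4 male libraries. IM18, an immune-induced molecule encoded elsewhere on 2R, was at 277 FPKM on HFD+QG and 130 on HFD, with 345 on ND and 100 on HFD+EGCG (1.09).

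The most abundant members differed by less. IM3 was at 2074 FPKM on HFD+QG and 1236 on HFD (0.75), and IM4 at 1400 and 944 (0.57). Summed over the list, levels were 8189 FPKM on HFD+QG, 5713 on HFD, 9625 on ND and 7877 on HFD+EGCG. IBIN, named for its induction by infection and listed as non-protein-coding in the table (2R, 17671068 to 17671295), had a difference of 3.00 from a base near the rounding limit. It was at 15 FPKM on HFD+QG and 1 on HFD, with 252 on ND and 6 on HFD+EGCG, so both libraries compared were far under ND.

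Recognition and signalling genes differed less than the peptides, with 21 described and a median of 0.15. Of the 21, 14 lay above 0, beside 29.6% of all genes, and 2 were at least 2-fold higher, beside 0.395%. Both were peptidoglycan recognition proteins, which bind bacterial cell wall. PGRP-SB1 was at 58 FPKM on HFD+QG and 24 on HFD, with 45 on ND and 23 on HFD+EGCG (1.24), and PGRP-SD was at 23 and 11, with 21 on ND and 15 on HFD+EGCG (1.00). The transcription factor Dif, which works in the Toll pathway, was at 31 FPKM on HFD+QG and 33 on HFD (-0.09).

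Turandot genes encode small secreted proteins produced under stress, in part through JAK-STAT signalling. TotM (2L, 5329857 to 5330464) was at 39 FPKM on HFD+QG and 5 on HFD, with 7 on ND and 10 on HFD+EGCG (2.74). TotA (3R, 20871036 to 20871700) was at 87 FPKM on HFD+QG and 26 on HFD, with 53 on ND and 32 on HFD+EGCG (1.70). TotC, its neighbour, was at 11 FPKM on HFD+QG and 3 on HFD, with 4 on ND and 3 on HFD+EGCG (1.58). In all 3 genes HFD+QG was the highest of the 4 male libraries, ND included. The summed level of Turandot genes was 147 FPKM on HFD+QG, 41 on HFD, 84 on ND and 50 on HFD+EGCG, and TotX, the other member described, was at 10 and 7 FPKM on HFD+QG and HFD.

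Genes of haemocytes, the fly's blood cells, and of basement membrane moved far less than the peptides. All 10 described lay above 0 with a median of 0.25 and none was 1.5-fold different, the collagen genes Col4a1 (17 FPKM on HFD+QG, 12 on HFD) and vkg (14 and 10) having the largest differences. Haemocyte markers summed to 13 FPKM on HFD+QG and 11 on HFD, and the defining markers NimC1 and eater were at 0 in all 4 male libraries. Lysozymes, which are digestive as well as immune, had 5 genes described, none 2-fold different, and a median of -0.18.

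**Figure D3:**
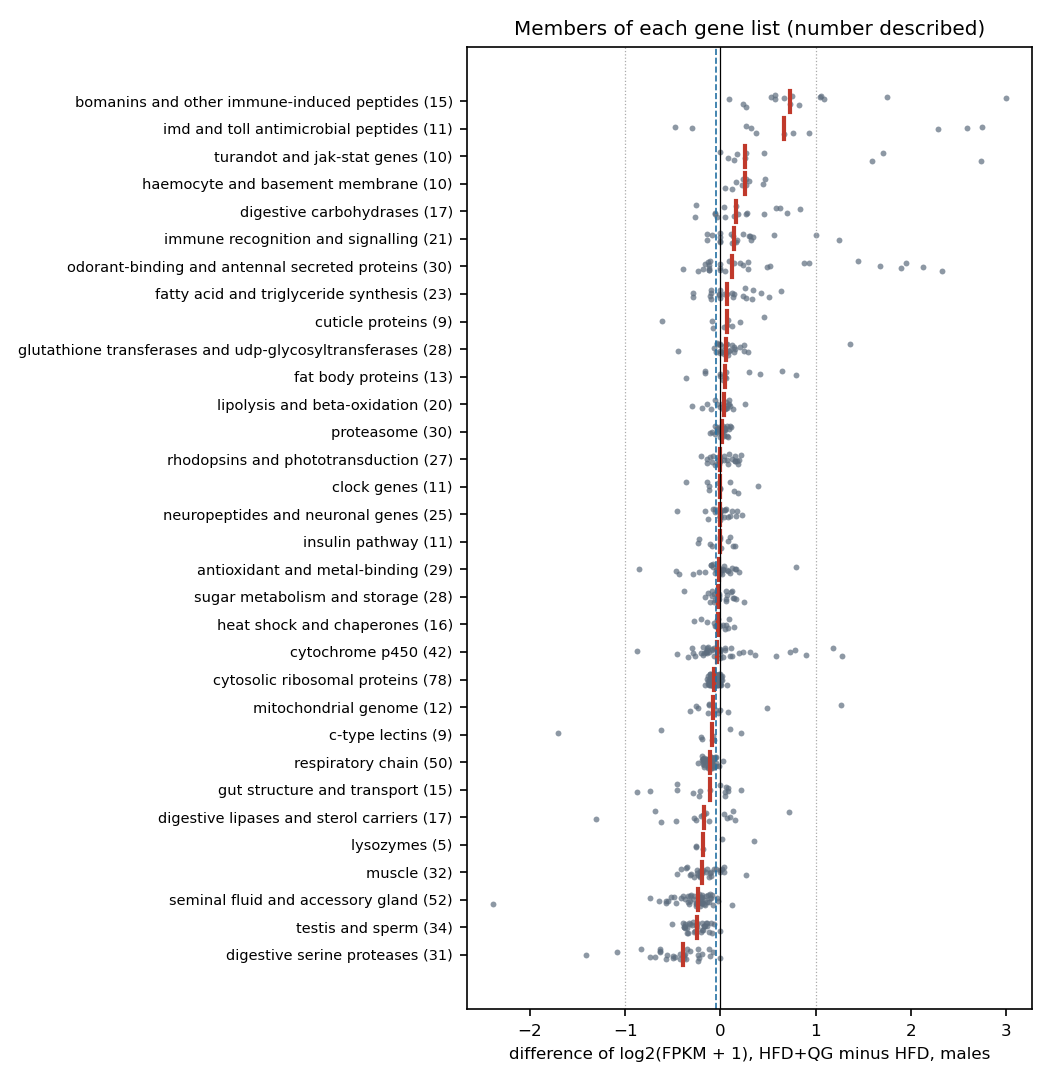
Difference of log2(FPKM + 1), HFD+QG minus HFD in males, for every described member of the gene lists (points), with the list median (red bar), the median over all genes (dashed blue line at -0.04) and 2-fold (dotted lines). The list of egg markers, with 1 gene described, is not drawn. Bomanins and antimicrobial peptides stand at the top with medians of 0.73 and 0.67, and digestive serine proteases at the bottom with -0.39.

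A second set of higher genes encodes proteins secreted in the antenna. Odorant-binding proteins carry hydrophobic odours through the fluid of the sensory hairs, though many family members are made elsewhere. Of 30 described genes in the list, 6 were at least 2-fold higher, beside 0.395% of all genes described, and none was 2-fold lower. Obp83a (3R, 5972155 to 5975245) was at 39 FPKM on HFD+QG and 7 on HFD, with 23 on ND and 52 on HFD+EGCG (2.32). Obp83b, next to it (3R, 5976177 to 5976817), was at 57 FPKM on HFD+QG and 14 on HFD, with 32 on ND and 61 on HFD+EGCG (1.95). Os-C, an antennal secreted protein, was at 34 FPKM on HFD+QG and 7 on HFD, with 25 on ND and 38 on HFD+EGCG (2.13). HFD was the lowest library in each and HFD+EGCG the highest.

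The remaining 3 had the same order. The antennal protein gene a10 was at 40 FPKM on HFD+QG and 10 on HFD, with 30 on ND and 46 on HFD+EGCG (1.90). Obp19a was at 15 FPKM on HFD+QG and 4 on HFD, with 11 on ND and 16 on HFD+EGCG (1.68). Obp28a was at 18 FPKM on HFD+QG and 6 on HFD, with 9 on ND and 25 on HFD+EGCG (1.44). These 6 genes lie on 4 chromosome arms. They did not stand for the family, since the 26 described Obp genes had 13 above 0, 11 below 0 and a median of 0.03, and Obp51a was at 451 FPKM on HFD+QG and 532 on HFD.

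The 4 antenna markers moved with this group, though 2 of them, Obp83a and Os-C, belong to it. They summed to 78 FPKM on HFD+QG, 15 on HFD, 51 on ND and 95 on HFD+EGCG. The other 2 were near the rounding limit, with lush at 3 FPKM on HFD+QG, 1 on HFD, 2 on ND and 3 on HFD+EGCG, and the odorant co-receptor Orco at 2, 0, 1 and 2 in that order. Odorant receptor genes were too low to read, none of the 60 being described and their sum lying between 10 and 14 FPKM in the 4 libraries. Photoreceptor markers, also of the head, summed to 6276 FPKM on HFD+QG and 6433 on HFD, and the 27 described phototransduction genes had a median of 0.00. The part of the antennae in these 6 differences was not tested.

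Detoxification genes showed a few large differences. Of 42 P450 genes described, 2 were at least 2-fold higher and none was 2-fold lower, beside 0.395% and 0.308% of all genes described. Their median was -0.03 as deposited and 0.09 under a common sum. Cyp4g1, at 9726 FPKM on HFD and listed at 0 on HFD+QG, is not among the 42. With it, the P450 list summed to 2270 FPKM on HFD+QG and 11660 on HFD. Cyp6w1 (2R, 6173684 to 6176195) was at 366 FPKM on HFD+QG and 161 on HFD, with 63 on ND and 217 on HFD+EGCG (1.18), and both of its transcripts were higher, at 268 against 115 FPKM and 98 against 46 FPKM. It was the highest on HFD+QG of the 4 male libraries. Cyp6a21 (2R, 14885264 to 14886947) was at 50 FPKM on HFD+QG and 20 on HFD, with 19 on ND and 52 on HFD+EGCG (1.28). Just under 2-fold lay Cyp6a8, at 27 FPKM on HFD+QG and 14 on HFD (0.90), while Cyp6a2 was at 5 and 10 (-0.87). Summed over the Cyp6 family, levels were 1086 FPKM on HFD+QG, 755 on HFD, 847 on ND and 972 on HFD+EGCG. The sum did not stand for the family, since its 14 described genes had 6 above 0, 6 below 0 and a median of 0.00.

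Conjugation enzymes, the glutathione transferases and UDP-glycosyltransferases, held 1 gene at least 2-fold higher among the 28 described, beside 0.395% of all genes. Of the 28, 19 lay above 0 and 5 below, with a median of 0.05, beside -0.04 over all genes. Under a common sum, which moves all genes upwards, 27 lay above 0. Their median was then 0.15, beside 0.05 over all genes. GstD2, a glutathione transferase, was at 17 FPKM on HFD+QG and 6 on HFD, with 13 on ND and 21 on HFD+EGCG (1.36). The 10 described genes of the GstE group had 8 above 0, none 1.5-fold different and a median of 0.11. Jheh1, an epoxide hydrolase of the juvenile hormone group, was at 164 FPKM on HFD+QG and 86 on HFD, with 57 on ND and 123 on HFD+EGCG (0.92). Its relatives differed less, with Jheh2 at 99 FPKM on HFD+QG and 77 on HFD (0.36) and Jheh3 at 49 and 64 (-0.38). Antioxidant and metal-binding genes, 29 described, had a median of -0.02, which was 0.08 under a common sum, and none past 2-fold. Metallothioneins, cysteine-rich proteins that hold copper and zinc, had 4 of 5 genes below 0 and a median of -0.43. MtnE was at 117 FPKM on HFD+QG and 213 on HFD (-0.86), MtnC at 3363 and 4656, MtnD at 338 and 457 and MtnB at 367 and 448, while MtnA was at 3705 and 3461.

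Digestive serine proteases were lower as a group. Of 31 described, 30 lay below 0 and 1 at 0, beside 55.4% of all genes below 0, and the median was -0.39. Past 2-fold in the lower direction were 2 of the 31, beside 0.308% of all genes, and past 1.5-fold 8 of the 31, beside 1.05% of all genes. Their summed level was 13562 FPKM on HFD+QG, the lowest of the male libraries, with 19005 on HFD, 17992 on ND and 19716 on HFD+EGCG. The median was -0.35 when median-centred and -0.30 under a common sum, where 29 lay below 0 and 1 stayed past 2-fold. Trypsin-domain genes outside the list, many of which work in development or immunity, had a median of -0.11 over 68 described and none 1.5-fold different. Of 252 protein domain families with at least 12 described genes, that of the trypsin serine active site, which takes in the list, had the lowest median, -0.32 over 55 genes.

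The abundant enzymes shared the direction. The trypsin betaTry was at 2590 FPKM on HFD+QG and 3811 on HFD, with 3618 on ND and 4160 on HFD+EGCG (-0.56), and alphaTry was at 1707 and 2373, with 2675 on ND and 2964 on HFD+EGCG (-0.47). The chymotrypsin-like gene Jon65Aiv was at 2134 FPKM on HFD+QG and 3025 on HFD, with 2466 on ND and 3025 on HFD+EGCG (-0.50). In these 3 genes HFD+QG was the lowest library. All 14 described Jonah proteases lay below 0, with a median of -0.42, and Jon99Cii (3R, 29923754 to 29924615) was past 2-fold at 175 FPKM on HFD+QG and 373 on HFD, with 627 on ND and 243 on HFD+EGCG (-1.09). CG18180 (3L, 9641013 to 9641913) was at 8 FPKM on HFD+QG and 23 on HFD, with 165 on ND and 18 on HFD+EGCG (-1.42). At the other end, etaTry was at 19 FPKM in both libraries.

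**Figure D4:**
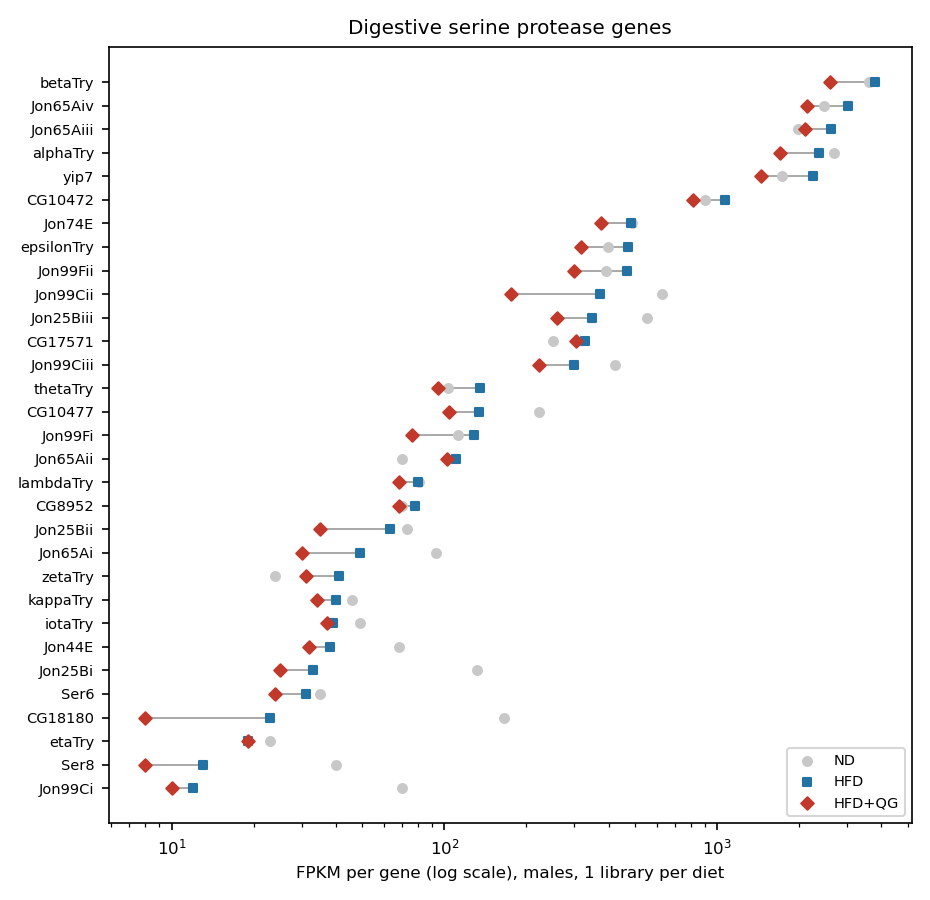
FPKM (log scale) of the 31 described digestive serine protease genes in males on ND, HFD and HFD+QG, ordered by level, 1 library per diet, with a line joining HFD and HFD+QG. HFD+QG (red) lies to the left of HFD (blue) in 30 genes, and etaTry is at the same value in both.

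Some other genes of gut secretions were lower as well. CG12374, a carboxypeptidase of the M14 family, was at 280 FPKM on HFD+QG and 578 on HFD, with 467 on ND and 400 on HFD+EGCG (-1.04). Digestive lipases and sterol carriers, 17 described, had a median of -0.18 beside -0.04 over all genes. Of the 17, 11 lay below 0 and 6 above, beside 55.4% and 29.6% of all genes. The lipase CG17192 was at 14 FPKM on HFD+QG and 36 on HFD, with 19 on ND and 19 on HFD+EGCG (-1.30), the gastric lipase gene mag was at 53 and 82 (-0.62), and the sterol carrier Npc2e was at 32 and 19 (0.72). Peritrophin-15a, a protein of the chitin lining that encloses the food, was at 116 FPKM on HFD+QG and 194 on HFD (-0.74), and CG10725, with a chitin-binding domain, at 7 and 17 (-1.17). The list of gut structure and transport genes gave no fixed direction, with 6 of 15 above 0 and 8 below, 2 at least 1.5-fold lower, and a median of -0.11 that turned to 0.09 when median-centred and 0.13 under a common sum, where 11 of the genes passed the minimum. The 4 midgut markers, which are themselves 2 of the proteases and 2 of the carbohydrases, summed to 2461 FPKM on HFD+QG, 3238 on HFD, 5333 on ND and 4129 on HFD+EGCG. Genes of gut structure and transport, which are not digestive enzymes of these lists, spread from -0.87 to 0.21. The proton pump subunit gene Vha100-4 was at 5 FPKM on HFD+QG and 10 on HFD, the lowest of them, while the myosin Myo61F was at 57 and 55. The amount of midgut RNA in each library was not tested.

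Carbohydrases did not go with the proteases. Of 17 described, 12 lay above 0 and 5 below, with a median of 0.16 and none past 2-fold, while their summed level of 1294 FPKM on HFD+QG and 1185 on HFD was far from the 3926 FPKM on ND. The maltase Mal-A4 was at 24 FPKM on HFD+QG and 13 on HFD, with 73 on ND (0.84), and Mal-B1 was at 33 and 20, with 70 on ND (0.70). The glucosidase gene tobi, a target of fly glucagon-like and insulin-like signals, was at 36 FPKM on HFD+QG and 23 on HFD, with 273 on ND (0.62). The amylase Amy-p was at 375 FPKM on HFD+QG and 310 on HFD, with 1110 on ND (0.27). In all 4 genes HFD+QG lay nearer to HFD than to ND in FPKM.

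Fat synthesis genes differed little, with 13 of 23 above 0, a median of 0.07 and none 2-fold different. Fatty acid synthase FASN1 was at 236 FPKM on HFD+QG and 152 on HFD, with 267 on ND and 240 on HFD+EGCG (0.63), the HFD value being split over 2 transcripts at 105 and 47 FPKM that stood at 232 and 4 on HFD+QG. Acetyl-CoA carboxylase ACC, the committing step of fatty acid synthesis, was at 97 FPKM on HFD+QG and 68 on HFD, with 134 on ND (0.51). AcCoAS was at 160 and 119 FPKM (0.42) and ATPCL, which makes acetyl-CoA from citrate, at 118 and 93 (0.34). Lipolysis and beta-oxidation genes had a median of 0.04 over 20 described, sugar metabolism -0.02 (0.07 under a common sum) over 28 and the insulin pathway 0.00 over 11, each with no gene past 2-fold. Of fat body proteins, Tsf1, the iron carrier transferrin that is also induced by infection, was at 437 FPKM on HFD+QG and 252 on HFD, with 743 on ND and 299 on HFD+EGCG (0.79). Fat body markers summed to 183 FPKM on HFD+QG, 172 on HFD and 271 on ND, with Fbp1 at 0 in all 4 male libraries.

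Male reproductive genes were lower by small amounts. Seminal fluid proteins are made in the accessory gland and passed to the female at mating. Their list had 51 of 52 described genes below 0 and a median of -0.24. Testis and sperm genes had 33 of 34 below 0 and a median of -0.25, beside 55.4% of all genes below 0. Under a common sum these medians were -0.14 and -0.16. Seminal fluid genes summed to 86251 FPKM on HFD+QG, 106949 on HFD, 110848 on ND and 87887 on HFD+EGCG. Mst57Db, one of the most abundant transcripts, was at 27482 FPKM on HFD+QG and 34231 on HFD (-0.32), and the serpin Spn28F was at 157 and 246 (-0.64). The sperm-tail gene dj was at 77 FPKM on HFD+QG and 110 on HFD, with 113 on ND and 62 on HFD+EGCG (-0.51). Neighbouring serpins of the Spn77B group, Spn77Bb and Spn77Bc, were at 148 and 217 FPKM on HFD+QG against 266 and 382 on HFD. Accessory gland markers, which are members of the seminal fluid list, summed to 28455 FPKM on HFD+QG and 35361 on HFD, and the 4 testis markers, dj among them, to 1153 and 1335. How much gland or testis tissue each library held was not tested.

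Muscle genes had 26 of 32 described below 0, beside 55.4% of all genes, and a median of -0.19, which was -0.10 under a common sum. None was 1.5-fold different, and Mlp84B was at 319 FPKM on HFD+QG and 411 on HFD. Respiratory chain genes had 49 of 50 below 0 and a median of -0.11, which was -0.01 with 19 above 0 under a common sum. The complex I subunit gene ND-AGGG, described below, is not in that list. Cytosolic ribosomal proteins had 72 of 78 below 0 and a median of -0.07, which turned to 0.02 with 57 above 0 under a common sum. The direction of the ribosomal genes therefore rests on the scaling. Neuronal, clock and proteasome genes had medians between 0.00 and 0.01, which were 0.09, 0.09 and 0.11 under a common sum.

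Among the lower protein-coding genes outside the digestive groups, the 2 with the largest differences stood out through the HFD library. ND-AGGG (3L, 24976254 to 24977118), a subunit of respiratory complex I, was at 7 FPKM on HFD+QG and 122 on HFD, with 4 on ND and 8 on HFD+EGCG (-3.94), 121 of the 122 FPKM standing on a single transcript. Sfp96F (3R, 25830061 to 25830228), a seminal fluid gene only 168 bases long, was at 445 FPKM on HFD+QG and 2332 on HFD, with 545 on ND and 380 on HFD+EGCG (-2.39). In both, HFD alone was high and the other 3 male libraries lay together. The C-type lectin lectin-37Da (2L, 19418317 to 19419029), a sugar-binding protein, was instead lowest on HFD+QG, at 21 FPKM there and 71 on HFD, with 176 on ND and 90 on HFD+EGCG (-1.71). Another C-type lectin, CG14500, was at 9 and 19 FPKM (-1.0), and CG43965 was at 6 and 15 (-1.19).

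The other higher genes had mixed roles. The mitochondrial complex I gene mt:ND4L was at 240 FPKM on HFD+QG and 99 on HFD, with 42 on ND and 303 on HFD+EGCG (1.27), while 9 of the 12 described genes of the mitochondrial genome lay below 0, or 6 of 12 under a common sum. CG13905, an insect allergen-related gene, was at 143 FPKM on HFD+QG and 67 on HFD, with 111 on ND and 166 on HFD+EGCG (1.08). CG42807 was at 86 FPKM on HFD+QG and 29 on HFD, with 168 on ND and 57 on HFD+EGCG (1.54). The acyl-CoA-binding gene CG15829 was at 13 FPKM on HFD+QG and 6 on HFD, with 37 on ND and 17 on HFD+EGCG (1.00). CG2064, Rdh1 in the reference annotation, was at 14 and 6 FPKM, with 13 on ND and 24 on HFD+EGCG (1.10).

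Other biotypes had 282 genes described, and 20 of the 282 were past 2-fold, beside 0.703% of all genes described. Of these 20, 5 were higher and 15 lower, so that they made up most of the 25 lower genes. Genes of snoRNAs, snRNAs, tRNAs or miRNAs were 16 of the 20. Most of these lie inside host genes, such as snoRNA:Me18S-A425 in RpL3, which was at 24 FPKM on HFD+QG and 202 on HFD, with 82 on ND and 55 on HFD+EGCG (-3.02). CG45045 (3R, 17667577 to 17667825), a non-protein-coding gene in the table, was at 59 FPKM on HFD+QG and 13 on HFD, with 74 on ND and 16 on HFD+EGCG (2.1). Reads of a gene that overlaps another may be shared between them where strand was not used in counting, which is not stated, and this touches Mtk, DptB, Os-C, PGRP-SD, CG2064, lectin-37Da, CG18180, CG17192, CG14500 and CG43965. Close relatives, such as the Turandot, Jonah, trypsin and bomanin genes, are uncertain as far as the authors' software divided reads between them.

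A further 23 genes at 10 FPKM or more in one library were listed at 0 in the other, 16 on HFD+QG and 7 on HFD, and for these no fold is given. Of the 16, 12 are under 200 bases long, as are all of the 7. The highest of the 12 was snoRNA:660 on 2R, at 764 FPKM on HFD and 555 on ND. It was listed at 0 on HFD+QG and HFD+EGCG. The 3 protein-coding genes listed at 0 on HFD+QG lie close together on chromosome X. Cyp4g1 (X, 467057 to 469335), which makes the cuticle hydrocarbons in oenocytes, was at 9726 FPKM on HFD and 9209 on ND and listed at 0 on HFD+QG and HFD+EGCG. CG12470 was at 78 and 73 FPKM and ewg at 10 and 12, likewise listed at 0 on both supplemented diets. They belong to a run of 8 neighbouring genes from 268509 to 470726 that were all listed at 0 in these 2 male libraries. The genes on either side, CG13377 at 6 FPKM in both libraries compared and ebo at 10 on HFD+QG and 9 on HFD, were not, and in females Cyp4g1 was at 7322 FPKM on HFD+QG and 6529 on HFD. The cause of the run was not tested.

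The female libraries share no sample with the male ones and give the same contrast once more. In females 7045 genes were described, with 37 (0.525%) past 2-fold in the higher direction on HFD+QG and 45 (0.639%) in the lower. Of the 27 protein-coding genes higher in males, 26 were described in females, and 11 of them lay above 0 there and 15 below, beside 49.2% and 38.8% of all genes described in females. At least 2-fold higher were 4 of them, and 4 were at least 2-fold lower. Of the 10 lower in males, 8 were described in females, 4 above 0 and 4 below, with 1 gene past 2-fold in each direction. The male gene set as a whole thus had no shared direction in females.

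The groups differed in their female values. The antennal genes lay above 0 in both sexes, with Obp83b at 23 FPKM on HFD+QG and 10 on HFD in females (1.13), Obp28a at 12 and 5 (1.12), Os-C at 15 and 7 (1.00) and Obp83a at 15 and 8. Cyp6w1 was higher in females too, at 96 FPKM on HFD+QG and 37 on HFD (1.35), and lectin-37Da was lower, at 154 and 582 (-1.91). Immune peptides lay the other way or near 0. DptB was at 34 FPKM on HFD+QG and 213 on HFD in females (-2.61), Mtk at 343 and 783 (-1.19), PGRP-SB1 at 25 and 65 (-1.34), and Dro at 138 and 134. Of 13 antimicrobial peptide genes described in females, 1 lay above 0 and 12 below, with a median of -1.19. Jon99Cii was at 358 FPKM on HFD+QG and 192 on HFD in females (0.90). Of 30 digestive serine proteases described in females, 16 lay above 0 and 14 below, with a median of 0.06. The shares of all genes there were 49.2% above 0 and 38.8% below. No difference between the sexes was tested, since each diet has 1 library per sex.

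**Figure D5:**
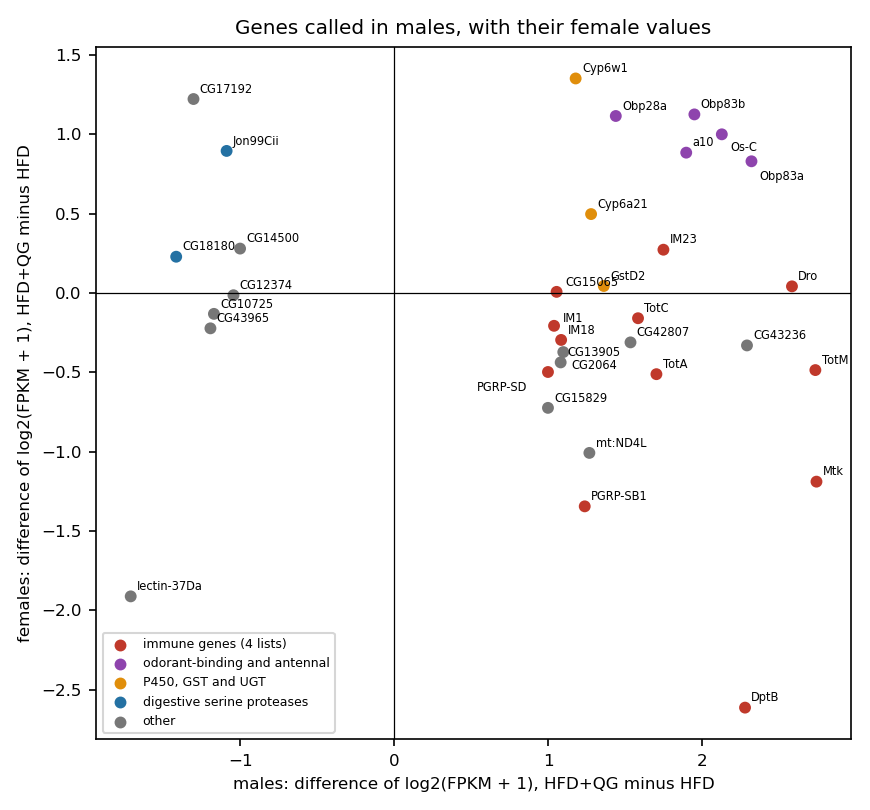
Difference of log2(FPKM + 1), HFD+QG minus HFD, in males (x axis) and females (y axis) for protein-coding genes at least 2-fold different in males and described in females, 1 library per diet and sex. Antennal genes and Cyp6w1 lie at the upper right, DptB, PGRP-SB1 and Mtk at the lower right, and lectin-37Da at the lower left.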

How the data were processed

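Per the labels' protocols, the RNA came from Isogen extraction and the kit was SureSelect, which keeps strand. The submitters' processing notes name Cuffdiff 2.2.1, TopHat2 2.1.1 and CASAVA 1.8.2, with no parameters. The genome build and any scaling between libraries are not given in the sources used here. The authors deposited FPKM per FlyBase transcript as whole numbers, handled here as a score. A transcript listed at 0 was under 0.5 FPKM or a failed estimate. Coordinates are those of the deposited table, and start and end matched BDGP6.54 (Ensembl release 115) for 17286 of 17431 genes.

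FPKM of 34475 transcripts were summed per gene with Python 3.11.15 and pandas 2.3.3. The pseudocount was 1. The fold rule was tested on simulated data. With 1 library per group no test was run, and depth is unknown. The 33 gene lists (1106 names, 35 not matched), the comparison and the markers were chosen with earlier results of these data known. Named genes were the 15 protein-coding genes with the largest difference in each direction, the called members of each list or else its 3 most different members, the 8 highest genes listed at 0 on either side and 3 noncoding genes per direction, and a few other members were picked after their values were seen. Alternatives were pseudocounts of 0.1 and 5, minimums of 1 and 50 FPKM, median-centring, a common sum, the highest transcript of each gene, protein-coding genes alone and a fold of 1.5.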

Additional observations from a re-analysis of the deposited data

Results flagged for a closer look

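For 8 genes past 2-fold in males and described in females, the female libraries lay at least 2-fold the other way. Each is given as the male minus the female difference of log2(FPKM + 1). The largest were IBIN at 5.01, DptB at 4.89, Mtk at 3.93 and CG45045 at 3.41. PGRP-SB1 was at 2.58 and mt:ND4L at 2.28. For the lipase CG17192, lower in males and higher in females (14 against 36 FPKM in males, 27 against 11 in females), it was -2.52. For snoRNA:Psi18S-1377a, lower in males and higher in females (7 against 18 FPKM in males, 35 against 11 in females), it was -2.83. These differences between the sexes were not tested, since 1 library stands behind each value. In female HFD, DptB (213 FPKM) and Mtk (783 FPKM) were above female ND, at 38 and 296 FPKM, while in male HFD both were below male ND.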

How the results depend on the processing

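The counts of 32 higher and 25 lower genes were 57 and 62 at a minimum of 1 FPKM, 14 and 10 at a minimum of 50 FPKM, and 73 and 85 at 1.5-fold. They were 47 and 38 with only the highest transcript of each gene, and 27 and 10 with protein-coding genes alone. They were 27 and 17 with a pseudocount of 5, 32 and 25 with 0.1, 33 and 20 when median-centred and 37 and 18 under a common sum. Of 40 named genes past 2-fold, none changed sign under a pseudocount of 5, the 2 scalings or the highest transcript. A pseudocount of 5 took IM1 to 0.90, PGRP-SD to 0.81, CG43965 to -0.86, CG10725 to -0.87 and CG14500 to -0.78. Median-centring took CG12374 to just under 2-fold (-0.9987) and CG14500 to -0.96, and a common sum took Jon99Cii to -0.99, CG12374 to -0.95 and CG14500 to -0.91. Of the list medians, that of gut structure and transport turned from -0.11 to 0.0861 when median-centred and to 0.1349 under a common sum, where fewer genes passed the minimum. From below to above 0 went the medians of 8 lists under a common sum and 5 when median-centred, that one included. No library could be left out, and no paired analysis was possible because the male comparison has 1 library a side. A fit over both sexes was not run. Rounding limits genes near 10 FPKM, where a step of 1 FPKM is a large part of the value.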
